A study of Homo sapiens with 16 samples.

Results

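The mitochondrial genes MT-CO1, MT-CO2, MT-ATP8, MT-ATP6, MT-CO3 and MT-CYB were examined for γ-tubulin ChIP-seq peaks. They are 6 of the 37 genes that RefSeq names on mitochondrial DNA (mtDNA). The set is defined by position, as the subunit genes of complexes III, IV and V that mtDNA encodes. It was chosen with earlier results of these data known. A peak is a region where the immunoprecipitate holds more reads than the control. Of the 2962 peaks in the deposited lists, 29 lay on mtDNA and 4 of these overlapped at least 1 base of a gene in the set. Of the 6 genes, 3 met no peak in any list, among them both ATP synthase genes. These 3 are neighbours and lie in 1 stretch of 1999 bp without a peak. The share of mtDNA under peaks, up to the last base under any peak, was between 0% and 64% depending on the list.

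γ-Tubulin was immunoprecipitated from MCF10A cells, a line of human breast epithelium, and from γTubulinsh-MCF10A cells, which are MCF10A stably transfected with an shRNA against γ-tubulin and kept under Zeocin selection. The shRNA lowers γ-tubulin and does not delete its genes, and the study describes these cells as a population. Both were synchronized by a double thymidine block, which holds cells at the start of S-phase, and were harvested 1 h or 2 h after release. Each of the 4 conditions had 2 ChIP libraries and 2 whole cell extract libraries as controls, 16 in all. Per the labels the material was lysed and sonicated nuclei, with no step that enriches mitochondria. For each condition the authors pooled both ChIP libraries into 1 deposited list, named here by cell and time (the MCF10A 2 h list), so the values below have no error between replicates and no test between conditions.

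The respiratory chain passes electrons along protein complexes in the inner mitochondrial membrane and pumps protons out of the matrix, and ATP synthase uses their return to make ATP. Most subunits of these complexes come from nuclear genes, and a small core of membrane-spanning subunits is encoded by mtDNA. MT-CO1, MT-CO2 and MT-CO3 encode the core of cytochrome c oxidase (complex IV), MT-ATP8 and MT-ATP6 encode membrane subunits of ATP synthase (complex V), and MT-CYB encodes cytochrome b of complex III. All 6 are transcribed in the same direction from mtDNA, as parts of long transcripts that are then cut, mostly at the tRNAs between the genes.

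MT-CO1 encodes the subunit that holds the site where oxygen is reduced. The gene lies on mtDNA from 5904 to 7445 and is 1542 bases long. Positions are given on the mitochondrial sequence of the files, which the authors took from Ensembl and added to the hg19 reference, counted from 1. The MCF10A 2 h list held 1 peak on the gene, which ran from 6177 to 7379, lay wholly inside it and covered 1203 of its bases, or 78.0%. No base of MT-CO1 was under a peak in the other 3 lists.

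The peak left the first 273 bases of MT-CO1 uncovered, from 5904 to 6176, and the last 66, from 7380 to 7445. Counted in codons from the first base of the gene, it ran from codon 92 to codon 492. The summit of a peak is the base with the most ChIP reads over it, which need not be the most enriched one against the control. For this peak the summit was at 6935, in codon 344. The uncovered start of the gene belongs to a stretch of 1600 bp without a peak, from 4577 to 6176, and its uncovered end belongs to a stretch of 144 bp, from 7380 to 7523.

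MT-CO2 encodes the subunit that receives electrons from cytochrome c. It lies from 7586 to 8269 and is 684 bases long. Here a peak of the MCF10A 2 h list from 7524 to 8336 covered all 684 bases, or 100%, and no other gene of the 6 was covered entirely by a peak in any list. The summit at 8038 was inside the gene, in codon 151. The other 3 lists had no peak on MT-CO2.

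The MT-CO2 peak was 813 bp long and reached 62 bases before the gene and 67 bases past it. Between MT-CO1 and MT-CO2 there are 140 bases, which hold the tRNA genes TRNS1 and TRND in the RefSeq order, and the peak covered the last 62 of them. Between MT-CO2 and MT-ATP8 there are 96 bases, where RefSeq places the tRNA gene TRNK alone, and the peak covered the first 67. It ended 29 bases before the first base of MT-ATP8.

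**Figure D1:**
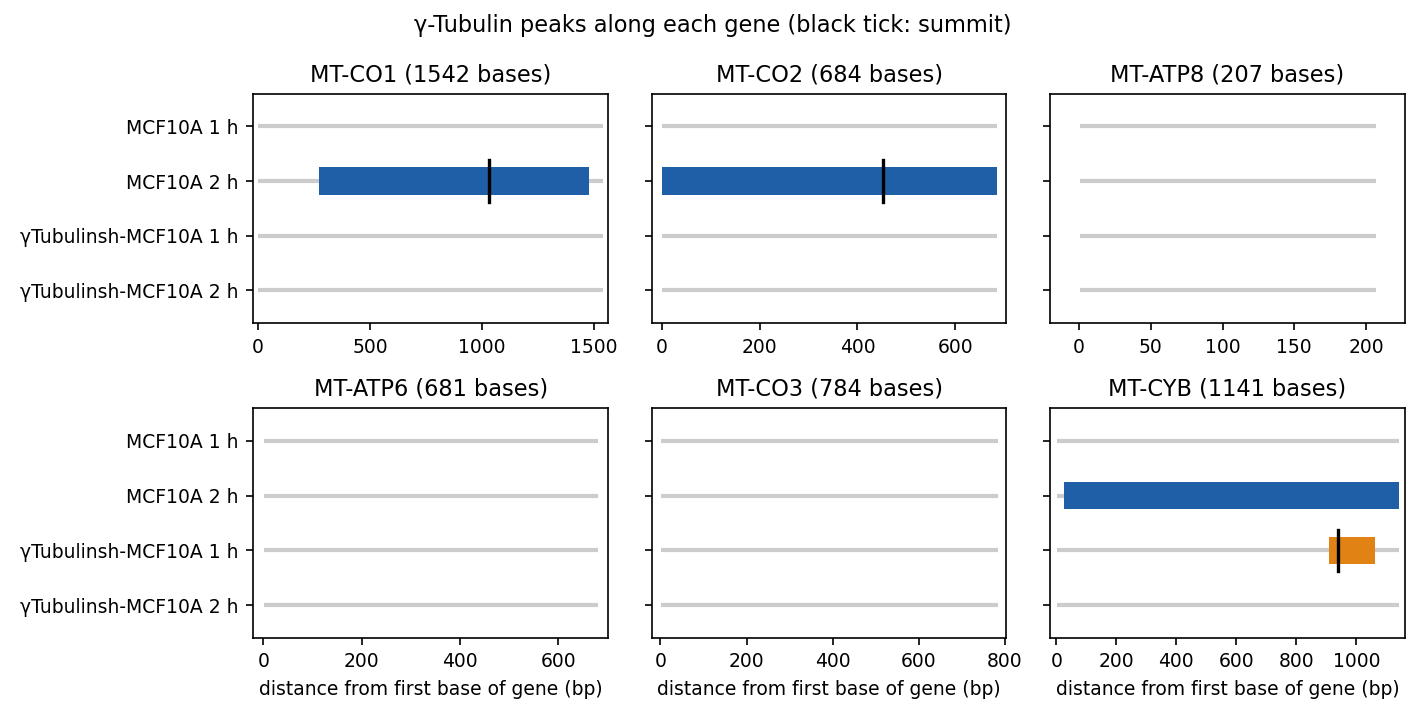
Peaks of each list along the 6 genes, with the distance from the first base of the gene in bp on the horizontal axis and 1 row per peak list. Grey lines are the whole gene, coloured bars the bases under a peak and black ticks the summits that lie in the gene. MT-CO1, MT-CO2 and MT-CYB carry bars in the MCF10A 2 h row, MT-CYB also a bar of 152 bases in the γTubulinsh-MCF10A 1 h row, and MT-ATP8, MT-ATP6 and MT-CO3 carry none.

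MT-ATP8, MT-ATP6 and MT-CO3 had 0 bases under peaks in each of the 4 lists. MT-ATP8, a small subunit of the stalk of ATP synthase, lies from 8366 to 8572 and is 207 bases long. MT-ATP6, the subunit through which protons pass, lies from 8527 to 9207 and is 681 bases long. The 2 genes share 46 bases and are read from a common mRNA in different frames. MT-CO3, the remaining core subunit of cytochrome c oxidase, which binds no metal, lies from 9207 to 9990, is 784 bases long and shares 1 base with MT-ATP6.

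In the MCF10A 2 h list these 3 genes lay in a stretch of 1999 bp without a peak, from 8337 to 10335, between the MT-CO2 peak and a peak that began 345 bases past the end of MT-CO3. It was the longest of the 15 stretches between neighbouring mtDNA peaks of that list. From the first base of MT-ATP8 to the last base of MT-CO3 there are 1625 bases, 81.3% of the stretch. The next longest stretch was the one of 1600 bp that ends in MT-CO1, and the third, 491 bp from 14280 to 14770, ends in the first bases of MT-CYB. When the peaks of all lists were laid together, the stretch from 8337 to 10335 was the longest of 16. The other lists had no peak in it or next to it, so its bounds come from the MCF10A 2 h list alone.

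**Figure D2:**
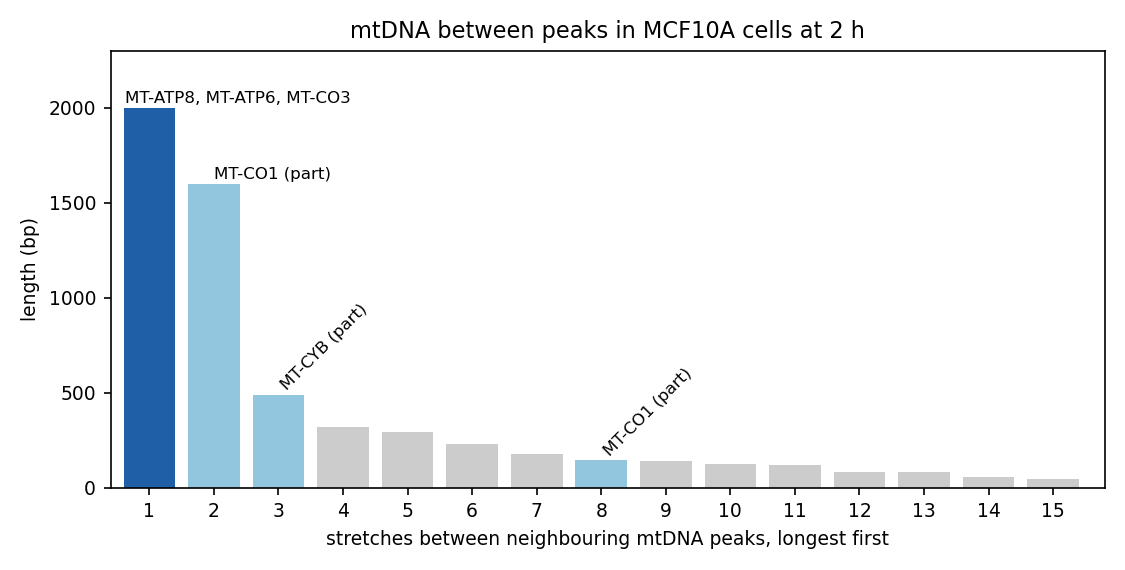
Length in bp of the 15 stretches of mtDNA between neighbouring peaks of the MCF10A 2 h list, sorted from the longest. Dark blue marks the stretch of 1999 bp that holds MT-ATP8, MT-ATP6 and MT-CO3 whole, light blue the stretches that hold a part of MT-CO1 or MT-CYB, and grey the others.

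In γTubulinsh-MCF10A cells the 5 genes from MT-CO1 to MT-CO3 lay far from any peak. At 1 h they fell in a stretch of 11337 bp from 732 to 12068, and the peak nearest to any of them began 2078 bases past MT-CO3. At 2 h they fell in a stretch of 10473 bp from 3392 to 13864, and the nearest peak ended 2512 bases before MT-CO1. The MCF10A 1 h list held no mtDNA peak, so no gene had a peak near it.

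MT-CYB encodes cytochrome b, which carries the heme groups that move electrons within complex III, and lies from 14747 to 15887, 1141 bases in all. It had peaks in 2 lists, and no other gene of the 6 did. A peak of the MCF10A 2 h list from 14771 to 16540 covered 1117 of its bases, or 97.9%, leaving out the first 24. In the γTubulinsh-MCF10A 1 h list a peak from 15656 to 15807 covered 152 bases, or 13.3%. The remaining lists had none.

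The MCF10A peak was not a peak of MT-CYB alone. It was 1770 bp long, 63.1% of it lay in the gene, and its remaining 653 bases ran past the gene's end. Its summit at 16431 was 544 bases beyond the last base of MT-CYB, so its enrichment and q-value were measured outside the gene. With the bases counted within 100 bp of the summits, MT-CYB had 0 bases in that list.

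The γTubulinsh-MCF10A peak at 1 h lay wholly inside MT-CYB, and all of its 152 bases were also under the MCF10A 2 h peak. It spanned codons 304 to 354, with the summit at 15683 in codon 313. The stretch of MT-CYB before it, 909 bases, and the 80 bases after it were uncovered in that list. At 2 h in the same cells the peaks nearest to MT-CYB ended 677 bases before it and began 180 bases after it.

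**Figure D3:**
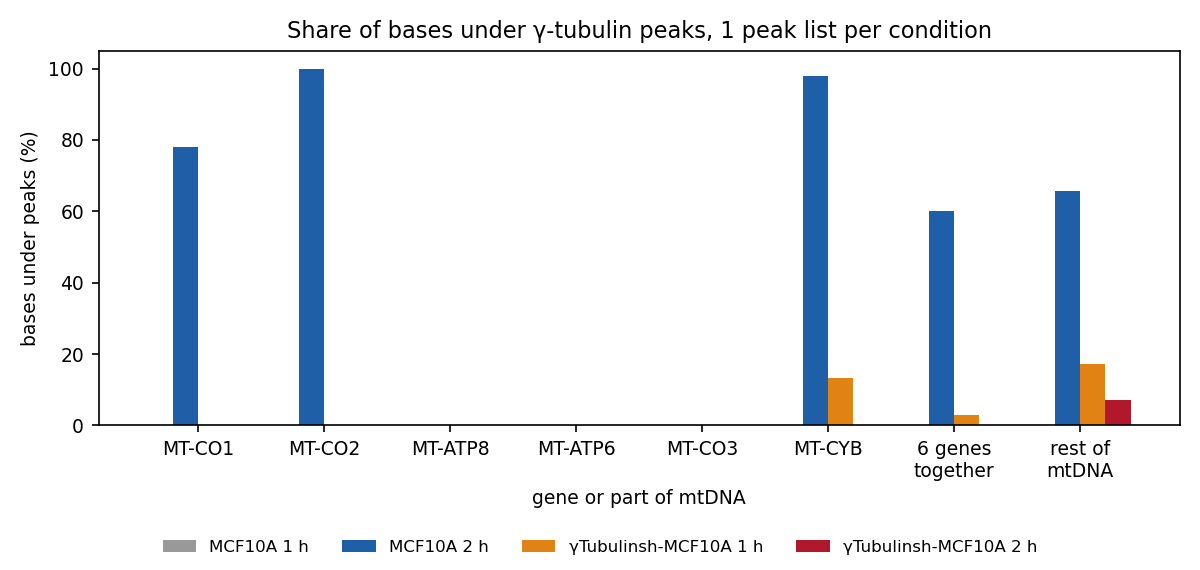
Share of bases under peaks, in percent, for each gene, for the 6 genes together and for the rest of mtDNA, with 1 bar per peak list and no error bars since each condition has 1 list. In the MCF10A 2 h list the genes range from 0% (MT-ATP8, MT-ATP6, MT-CO3) to 100% (MT-CO2), and the 6 together reach 60.2%, beside 65.7% of the rest.

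Together the 6 genes take up 4992 bases, each counted once, or 30.2% of mtDNA from position 1 to 16540, the last base under any peak. Peaks of the MCF10A 2 h list covered 3004 of these bases, or 60.2%. Over all mtDNA up to position 16540 the share was 64%, and over mtDNA outside the 6 genes it was 65.7%. The genes as a set were therefore covered about as far as the rest, and the 6 values of 78.0%, 100%, 0%, 0%, 0% and 97.9% spread around that level.

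In the γTubulinsh-MCF10A 1 h list, 152 bases of the 6 genes were under peaks, or 3.04%, compared with 13% of all mtDNA up to position 16540 and 17.3% of mtDNA outside the genes. In the 2 h list of the same cells the genes had 0 bases under peaks, compared with 5.05% of all mtDNA and 7.23% outside the genes. The MCF10A 1 h list gave 0% in and outside the genes. In the 6 genes lay 2 of the 16 mtDNA summits of the MCF10A 2 h list, 1 of the 8 of the γTubulinsh-MCF10A 1 h list and 0 of the 5 of its 2 h list. Neighbouring bases belong to the same peak and are not independent, so these shares were not tested against each other.

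The fold enrichment divides the ChIP pileup (the reads over the summit) by the local background of the control, after 1 is added to both. At the MT-CO1 peak it was 1.71, with a −log10 q-value of 9.26, ranks 10 and 8 among the 16 mtDNA peaks of the MCF10A 2 h list. The MT-CO2 peak had a fold enrichment of 1.79 and a q-value of 11.1 on the same scale, rank 5 in each. The peak over MT-CYB had 2.32 and 24.4, the highest of both, at its summit outside the gene. The fold enrichments of all 16 ran from 1.36 to 2.32 with a median of 1.72, so the MT-CO1 and MT-CO2 peaks were near the middle.

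For the γTubulinsh-MCF10A 1 h peak in MT-CYB the fold enrichment was 1.44 and the −log10 q-value 2.18. It ranked 7 by fold, by q-value and by length among the 8 mtDNA peaks of that list. The length of 152 bp stood far below the 1203 bp and 813 bp of the MT-CO1 and MT-CO2 peaks.

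The MT-CO1 and MT-CO2 peaks were longer and had lower listed fold enrichments than most nuclear peaks of their list. Of the 1531 nuclear peaks in the MCF10A 2 h list, 34 had a lower fold enrichment than the MT-CO1 peak and 47 a lower one than the MT-CO2 peak, but 740 and 906 had a lower −log10 q-value. Their length was above that of 99.3% and 97.9% of the nuclear peaks. In the γTubulinsh-MCF10A 1 h list, 7 of 288 nuclear peaks had a lower fold enrichment than the MT-CYB peak and 25 a lower −log10 q-value.

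The lists give no read totals, but a peak's pileup and background together fix its fold enrichment and p-value, so these reads could be recovered. At the MT-CO1 summit they were 231 reads over a background of 135, and at the MT-CO2 summit 227 reads over 126. At the summit of the MCF10A peak over MT-CYB they were 236 reads over 101, and at that of the γTubulinsh-MCF10A peak 208 reads over 144. The ChIP pileups of the 3 MCF10A peaks thus differed by 9 reads at most, whereas the backgrounds ran from 101 to 135.

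A count of 231 reads has a 95% Poisson interval of 202 to 263, and with the background held fixed the fold enrichment at MT-CO1 lies between 1.49 and 1.94. At MT-CO2 the interval is 1.57 to 2.04, and for the γTubulinsh-MCF10A peak in MT-CYB it is 1.25 to 1.65. These intervals cover counting error only and run past the upper limit on pileups given next, so no order of the genes by fold enrichment was read from them.

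The pileups stood close to an upper limit. The shortest peak, taken as the fragment length that MACS2 used, was 120 bp in the MCF10A 2 h list and 106 bp in the γTubulinsh-MCF10A 1 h list. If at most 1 read per position and strand is kept, as MACS2 does by default, a pileup cannot exceed 2 times that length, 240 and 212 reads. The highest pileups of any peak, nuclear ones included, were 240 and 211 in these lists, and 219 of 220 and 227 of 230 in the MCF10A 1 h and γTubulinsh-MCF10A 2 h lists. The MT-CO1 summit was at 96.2% of that limit and the MT-CO2 summit at 94.6%, the MT-CYB peaks at 98.3% and 98.1%. At that limit the fold enrichment could reach no more than 1.77 at the background of the MT-CO1 summit and 1.90 at that of MT-CO2. If the limit held, the ChIP pileups on mtDNA were capped. The control backgrounds at the mtDNA summits of the MCF10A 2 h list ran from 88.1 to 173 reads and may have been limited too. The listed fold enrichments on mtDNA could therefore be too low or too high, which was not tested. Nuclear peaks of that list had a median pileup of 45 and a median background of 10.7. The low rank of the mtDNA fold enrichments among them was thus not read as weaker or stronger binding, which was not tested. Over the 16 mtDNA peaks of the MCF10A 2 h list the highest pileup was 1.24 times the lowest, and the highest control background 1.97 times the lowest.

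**Figure D4:**
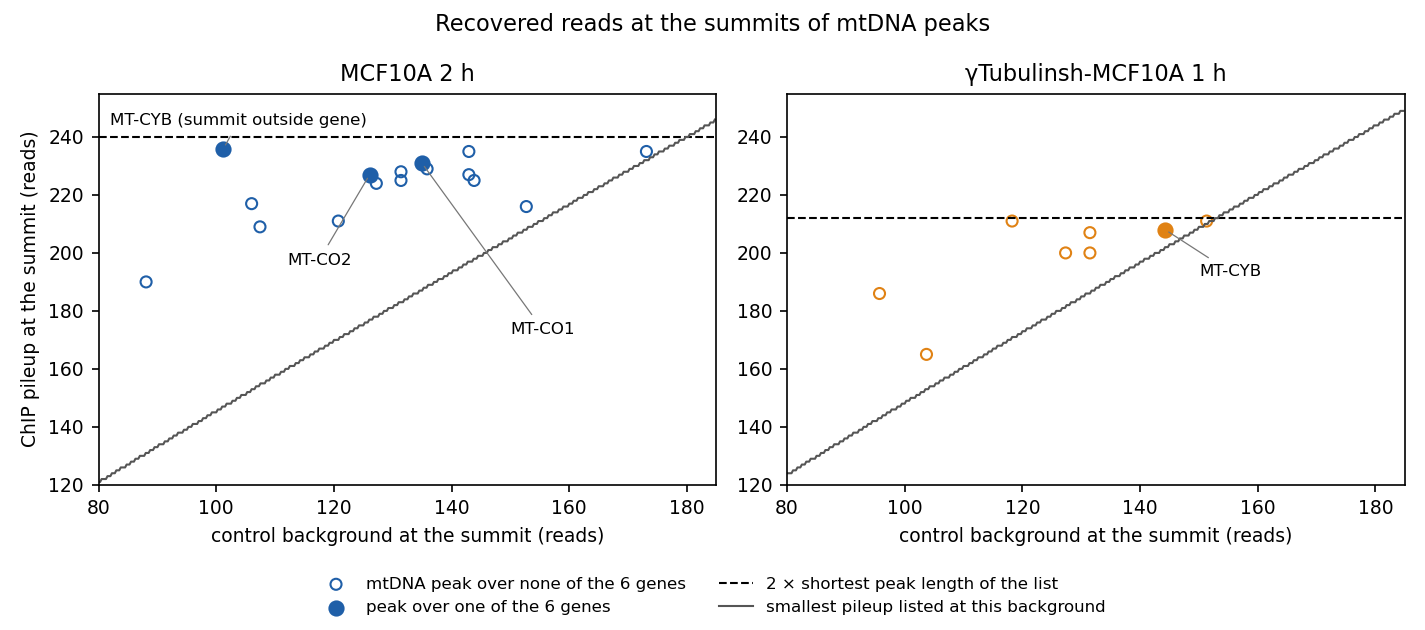
ChIP pileup against control background at the summits of the mtDNA peaks, both in reads, in the MCF10A 2 h (16 peaks) and γTubulinsh-MCF10A 1 h (8 peaks) lists. Filled points are the peaks over MT-CO1, MT-CO2 and MT-CYB, the dashed line is 2 times the shortest peak length (240 and 212 reads), and the grey line is the smallest pileup that reaches the lowest −log10 p-value of the list. The MT-CYB peak of γTubulinsh-MCF10A cells sits 6 reads above the grey line, and those of MCF10A cells 44 to 89 above it.

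Near this limit a position with a high control cannot be listed. At the background of the MT-CO1 summit a pileup of 187 reads would have reached the lowest −log10 p-value of the list, 5.00, and the peak had 44 reads more. At MT-CO2 177 reads would have sufficed, and the peak had 50 more. The γTubulinsh-MCF10A 1 h peak in MT-CYB needed 202 reads and had 208. A pileup at the limit would have been listed up to a background of 180.4 in the MCF10A 2 h list, 162.2 in the MCF10A 1 h list and 153.4 in the γTubulinsh-MCF10A 1 h list. The background at MT-ATP8, MT-ATP6 and MT-CO3 is not known, since a list gives it at summits alone, and its part in the lack of peaks there was not tested. The 4 peaks over the genes had −log10 p-values from 6.59 to 30.0, above the lowest one of each list, of which the highest was 5.95.

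Reads with more than 1 position in the reference were discarded by the authors, which affects genes with copies in the nuclear genome. RefSeq (GRCh38.p14) names 58 pseudogenes of MT-CO1, 34 of MT-CO2, 4 of MT-ATP8, 31 of MT-ATP6, 47 of MT-CO3 and 45 of MT-CYB. In its gene order on chromosome 1, MTCO1P12, MTCO2P12, MTATP8P1, MTATP6P1 and MTCO3P12 follow each other after MTND1P23 and MTND2P28, with no copy of MT-CYB among them. How many reads each gene lost in this way was not tested.

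On chromosome 1 between 564438 and 569483 of hg19, the region of a known nuclear copy of mtDNA, the MCF10A 2 h list had 10 peaks with fold enrichments between 2.29 and 4.11. The MCF10A 1 h list had 0 there, and both γTubulinsh-MCF10A lists had 4. Reads of mtDNA and of such a copy cannot be fully told apart, so the values of the 5 genes with a copy there are uncertain. Those of MT-CYB are not free of this, as RefSeq names 45 pseudogenes of it, 3 of them on chromosome 1.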

How the data were processed

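The 4 deposited γ-tubulin peak lists were analysed, 1 per condition. Per the labels and the methods, the authors mapped reads with Bowtie 1.0.0, keeping those with a unique position, on hg19 with the mitochondrial genome of Ensembl, and called peaks with MACS2 2.1.1. The methods name its differential tool, whereas the lists look like its calls of ChIP over control and were read as such. The deposited score equals the −log10 q-value multiplied by 10 without its decimals. The authors' fold enrichment (a ratio), −log10 p-value and q-value were computed at the summit.

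Gene positions were taken from the definition of the gene set. They equal those of the mitochondrial genes in RefSeq (GRCh38.p14), from which only names, order and pseudogene names were used. The 6 genes and all settings were chosen with earlier results of these data known. Every peak that overlaps them by at least 1 base is described. Coverage of the other mtDNA genes was not analysed here. Pileup and background were solved under the formulas and default settings of MACS2. The pileup came out whole in 100% of peaks of each list (−log10 p-values met within 0.001, and within 0.02 in the γTubulinsh-MCF10A 2 h list after a scale of 0.943). On simulated peaks the right pileup was returned in at least 99.5% of 200 to 236 peaks per list. The simulated peaks were made with the same formulas, so this checks the solving alone and not whether the deposited lists follow them. Scripts ran in Python 3.11.15 with scipy 1.17.1, pandas 2.3.3, numpy 2.4.6 and, for figures, matplotlib 3.10.9.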

Additional observations from a re-analysis of the deposited data

Results flagged for a closer look

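Peak coverage of the 6 genes differed between 1 h and 2 h with opposite signs in MCF10A and γTubulinsh-MCF10A cells. Taken as 2 h minus 1 h, the bases of the 6 genes under peaks differed by 3004 in MCF10A cells and by -152 in γTubulinsh-MCF10A cells, and the number of peaks over them by 3 and by -1. The same signs were seen over all mtDNA up to position 16540. There the share under peaks was 0% at 1 h and 64% at 2 h in MCF10A cells, and 13% and 5.05% in γTubulinsh-MCF10A cells. Peaks outside mtDNA went the same way. The MCF10A lists held 1035 of them at 1 h and 1531 at 2 h, the γTubulinsh-MCF10A lists 288 and 79. The signs were thus particular neither to the 6 genes nor to mtDNA. Whether coverage of mtDNA follows the size of the whole list was not tested. For MT-CYB alone the differences were 1117 and -152 bases. With 1 list per condition this difference was not tested. The value of -152 rests on 1 peak with a pileup 6 reads above the smallest one listed at its background. The value of 3004 rests on the MCF10A 1 h list having no mtDNA peak. A pileup at the upper limit would have been listed there up to a background of 162.2, against 180.4 at 2 h. The control background on mtDNA is not known for the 1 h list, and its part in the lack of peaks was not tested.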

How the results depend on the processing

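No paired analysis was possible because every list pools both ChIP libraries of its condition, and for the same reason no replicate could be left out. The MCF10A 1 h and γTubulinsh-MCF10A 2 h lists had 0 peaks and 0 bases on the 6 genes under every setting run. For the MCF10A 2 h list, scores at or above the pooled 75th percentile of 132 left 1 peak and 1117 bases, all in MT-CYB, and bases within 100 bp of the summits came to 402, in MT-CO1 and MT-CO2. For the γTubulinsh-MCF10A 1 h list, both score limits (the lower being the pooled median, 85) and a minimum length of 400 bp each left 0 peaks and 0 bases. Merging peaks within 1000 bp raised the bases there from 152 to 1141, the whole of MT-CYB, because peaks on both sides join across the gene. The other alternatives stayed within 1.5 times the reported count. A Poisson tail that includes the pileup moved the 4 recovered pileups by 3 to 6 reads but gave whole pileups in 0.905% to 23.8% of peaks per list. The pooled lists give no error between replicates, and the recovered pileups carry counting error and, if duplicate reads were removed, an upper limit.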
